A study of Homo sapiens with 11 samples.

Results

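The arrays described here come from the lines that carry hairpin shRNA1 against L1TD1, compared after 6 days with doxycycline (dox+) and without it (dox-). They are the 6 arrays whose signal columns are headed shRNA1, 3 dox- and 3 dox+, of 11 arrays in all. Of 48803 probes on the array, 14334 were kept because their detection p was under 0.01 on at least 3 of these 6 arrays. They measured 9857 named genes, each read from its brightest kept probe.

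The study used NT2D1, an established human embryonal carcinoma line that resembles undifferentiated embryonic stem cells and can be driven to differentiate. Each line was derived from NT2D1 as a clone with stable expression of the tetracycline repressor TetR3 and of an L1TD1 hairpin, so both groups carry the repressor and the shRNA1 cassette and differ in doxycycline. The series also holds 5 arrays of lines with a hairpin named shRNA5, of which 2 are dox- and 3 are dox+. The submitters describe 12 samples and left out 1 that did not group with its kind. Arrays of doxycycline given to cells without a hairpin were not analysed here, so a response to the hairpin and a response to doxycycline itself cannot be told apart. Cells were analysed in bulk, so fewer cells of a type and less RNA per cell cannot be told apart.

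L1TD1 is an RNA-binding protein of undifferentiated human stem cells and embryonal carcinoma cells, and its open reading frame is related to that of the LINE-1 transposon. In an inducible system the repressor sits on the promoter of the hairpin until doxycycline releases it, and the hairpin is then processed to a short RNA that guides cleavage of its target. A hairpin can also act on other transcripts that pair with its seed, and cells can respond to double-stranded RNA through interferon genes or to protein stress through the transcription factor ATF4. For these reasons an effect seen with 1 hairpin is usually set against that of another hairpin of the same target.

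The lines carried the markers of undifferentiated cells in both groups. LIN28A, an RNA-binding protein that blocks let-7 maturation, had log2 levels of 13.67, 13.87 and 13.68 without doxycycline and 13.80, 13.63 and 13.65 with it. POU5F1, the core pluripotency factor also called OCT4, lay at 11.33, 11.22 and 11.84 without and at 11.38, 10.81 and 11.62 with doxycycline. For both genes the groups overlapped, and DPPA4, PODXL and SALL4 were also detected on all 6 arrays. So were the pluripotency genes SOX2, NANOG and DNMT3B, but for these every dox+ array lay below every dox- array. Their differences of -0.68, -0.54 and -0.54 were not called at the brightest probe. TDGF1 had no kept probe with its symbol.

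Raw signal moved with the groups. The mean raw intensity was 461, 395 and 453 on the dox- arrays and 348, 378 and 358 on the dox+ arrays, and its part in the results below was not tested. The groups did not overlap, and an exact two-sided permutation test gave p = 0.1, the smallest that 3 against 3 arrays allow. The number of probes detected was 14224.7 ± 854 on the dox- arrays and 14213.7 ± 913 on the dox+ arrays (SD, n = 3 each). Correlations of log2 levels over the kept probes lay between 0.968 and 0.986 within groups and between 0.942 and 0.983 between them.

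The target of the hairpin fell. L1TD1 had log2 levels of 8.55, 8.57 and 8.86 on the dox- arrays and 8.04, 7.65 and 7.34 on the dox+ arrays. All 3 dox+ arrays lay below all dox- arrays, with the dox+ array of replicate 3 lowest. The difference was -0.98 (SE 0.23), which leaves 50.6% of the dox- level at an adjusted p of 0.0322 (limma), and 0.0750 when no probe was filtered. For shRNA5 the difference was -0.87, which leaves 54.7%, and the difference between the hairpins was -0.11 (SE 0.34), with an adjusted p of 0.916.

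With doxycycline, 485 genes changed in the shRNA1 lines at an adjusted p under 0.05 in limma, and these are the changes called below. This is 4.92% of the 9857 genes, with 277 that rose (2.81%) and 208 that fell (2.11%). Over probes, 723 were called (5.04%), 389 higher (2.71%) and 334 lower (2.33%), and 3425 (23.9%) had an unadjusted p under 0.05. For 484 of the 485 genes the difference had 1 sign in all 3 pairs of arrays with the same replicate number, and for 483 the groups did not overlap, against 14.9% of all genes apart and higher and 14.7% apart and lower. These shares belong to the same arrays that chose the genes. Of the 14334 kept probes 135 were detected on all 3 arrays of 1 group and on 0 of the other, so they passed the filter only through the group where they are high, and 49 of the 485 called genes were of this kind. Every gene given below with a fold of at least some value is of this kind too. Of the 100 called genes in a set picked by rule, 44 stayed called in limma with no probe filtered.

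The number of calls rested on single arrays, and so did every call in the shRNA1 lines named below except the rise of ACTN3. Without the dox- array of replicate 1 only 1 probe was called, without the dox+ array of replicate 1 there were 16, without the dox- array of replicate 3 there were 41 and without the dox+ array of replicate 3 there were 2. ACTN3 was the gene that stayed called in each of these fits. Without the arrays of replicate 2 the counts were 874 and 1072. Removal of shRNA5 arrays, which enter only the estimate of the spread, gave 347 without either dox- array and up to 1151 without the dox+ array of replicate 6. With the replicate number as a block 1359 probes were called, of which 711 were among the 723. With arrays scaled to a common median, the median over all kept probes moved from -0.0136 to -0.226 and the share of higher calls from 53.8% to 24.1%.

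**Figure D1:**
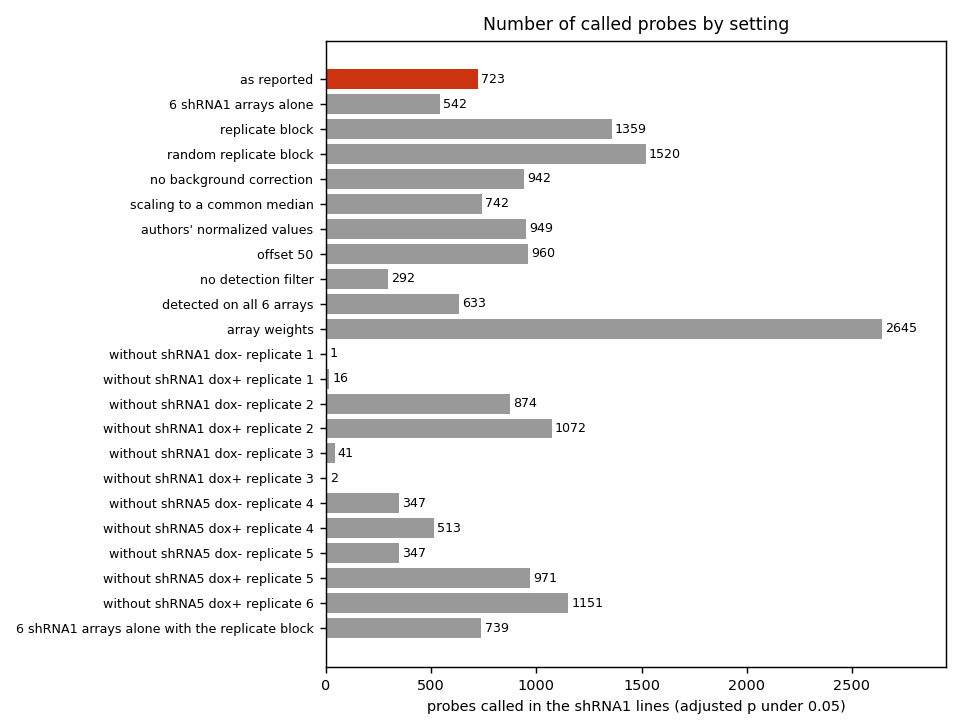
Number of probes called in the shRNA1 lines (x axis, adjusted p under 0.05) for the fit as reported (red, 723) and for each other setting (grey). Leaving out 1 of 4 shRNA1 arrays, both of replicate 1 and both of replicate 3, leaves between 1 and 41 called probes, and array weights give 2645.

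The differences of most called genes were smallest in the pair of replicate 2. L1TD1 itself differed least in the pair of replicate 1, from 8.55 to 8.04, against 8.57 to 7.65 in that of replicate 2. Among the 277 genes that rose, the median difference within a pair was 1.08 for replicate 1, 0.58 for replicate 2 and 1.30 for replicate 3, and the pair of replicate 2 had the smallest difference for 231 of them. Among the 208 that fell, the medians were -1.06, -0.61 and -1.16, with the smallest size in replicate 2 for 173. Over all 9857 genes the pair of replicate 2 had the smallest absolute difference for 5251.

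In the lines with shRNA5 the same genes had medians near 0, with large differences for some. The median difference of the genes that rose was 0.99 in the shRNA1 lines and 0.08 in the shRNA5 lines, and that of the genes that fell was -0.92 and -0.10. Of the 485 genes, 319 had the same sign in the shRNA5 lines and 166 the opposite sign. At an unadjusted p under 0.05 in limma 42 of them differed in the shRNA5 lines, among them ATF5 (1.55), INHBE (1.48), TRIB3 (1.22), ASS1 (0.97) and STC1 (-1.14). The shRNA1 side of this comparison chose the genes, so its values are a description. Among the shRNA5 arrays limma called 0 of the 14334 probes (0%), with 831 (5.8%) at an unadjusted p under 0.05. The 3 dox+ arrays of shRNA5 were not alike for every gene, and that of replicate 6 has no dox- array of its number. For replicates 4, 5 and 6 CLDN7 was at 6.31, 6.57 and 7.96 and GLIPR1L1 at 9.13, 9.42 and 7.87. BRINP1, at 8.57, 8.79 and 8.69, had no such spread. A mean of the shRNA5 lines can therefore stand for unlike arrays.

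The test of the difference between the 2 hairpins passed for 1 probe, ACTN3, which is 0.00698% of those tested. At an unadjusted p under 0.05 the difference held for 1764 probes (12.3%) and 1206 genes (12.2%), and for 357 of the 485 called genes (73.6%). The called genes were chosen by a contrast that is a term of this difference, so the last share is a description. For the other genes named below a difference between the hairpins is therefore not shown, however far apart their values are, and the call for ACTN3 is of a difference and not of a change in 1 hairpin alone.

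**Figure D2:**
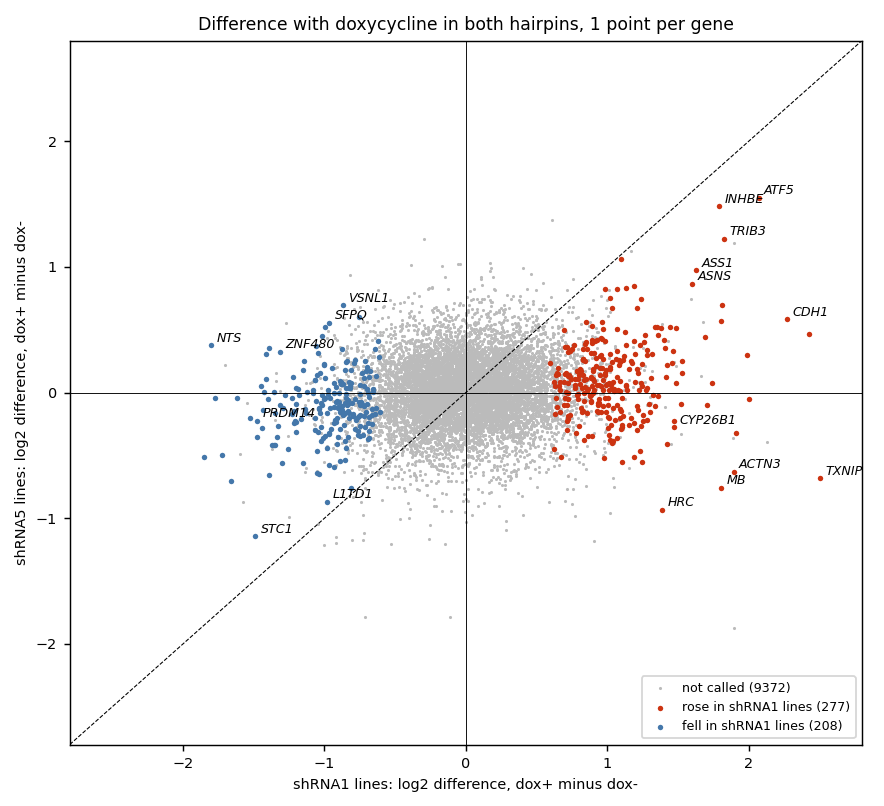
Log2 difference with doxycycline in the shRNA1 lines (x axis) against that in the shRNA5 lines (y axis), 1 point per gene, with genes that rose in red (277), genes that fell in blue (208) and the rest in grey. The dashed line marks equal differences, and ATF5, INHBE and STC1 lie near it while TXNIP, ACTN3, MB and HRC lie below the horizontal line at 0.

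ACTN3, a protein of the Z disc of fast muscle fibres that cross-links actin, was the gene with a called difference between hairpins. Its log2 level was 5.23, 5.12 and 4.96 on the dox- arrays of shRNA1, where it was not detected, and 7.37, 6.83 and 6.78 on the dox+ arrays, where it was detected on all 3. On the shRNA5 arrays it was 6.09 and 5.69 for the dox- and dox+ arrays of replicate 4, 6.26 and 5.39 for those of replicate 5, and 5.57 for the dox+ array of replicate 6. With the background correction and offset used here, the rise in the shRNA1 lines was at least 2.44-fold, adjusted p 0.00223 in limma. On the log2 scale it was 1.89, but 0.91 without background correction, 1.02 on the authors' normalized values and 1.24 with offset 50. ACTN3 passed the filter only through its dox+ arrays, and with no probe filtered the adjusted p was 0.0109 for the rise and 0.0370 for the difference between hairpins. Every dox+ array of shRNA5 lay below both its dox- arrays, with a difference of -0.63 (SE 0.21). The difference between hairpins was 2.52 (SE 0.28), with an adjusted p of 0.00879, but it missed the threshold in 6 other settings, among them the replicate block (0.0630) and the authors' normalized values (0.107). On those values its size was 1.34.

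MB and HRC also rose in the shRNA1 lines with negative differences in the shRNA5 lines, and did not pass the test between hairpins. MB, the oxygen-binding myoglobin, was not detected on the dox- arrays of shRNA1 at 4.95, 5.46 and 5.07 and was detected on the dox+ arrays at 7.11, 6.51 and 7.28. This was a rise of at least 2.39-fold at an adjusted p of 0.00931 (limma), and of 0.0241 with no probe filtered, since MB too was kept only through its dox+ arrays. Its difference in the shRNA5 lines was -0.76 (SE 0.27), and the difference between hairpins was 2.56 (SE 0.36), with an adjusted p of 0.0551. HRC, a calcium-binding protein of the sarcoplasmic reticulum, rose by 1.39 (SE 0.31) against -0.93 in the shRNA5 lines, with an adjusted p of the difference of 0.197. Of 34 genes of actin and contraction measured, 0 were called in either direction, 15 were positive and 19 negative, and their median difference was -0.07. ACTA1, the skeletal muscle actin, had a difference of 1.68 (SE 0.61), adjusted p 0.111, and 0.0139 with the replicate block.

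TXNIP had the largest rise of all called genes. It binds thioredoxin and restrains glucose uptake, and it is a target of the glucose-sensing factor MLXIP. The dox- arrays of shRNA1 gave 8.46, 8.17 and 7.21 and the dox+ arrays 11.13, 9.89 and 10.33, so that the lowest dox+ array stood over 1 log2 unit above the highest dox- array. The rise was 2.51 (SE 0.39), or 5.68-fold, adjusted p 0.0133 in limma. With shRNA5, TXNIP lay at 10.34 and 9.66 without and at 9.72, 8.58 and 9.65 with doxycycline, a difference of -0.68 (SE 0.44). The difference between hairpins, 3.19 (SE 0.59), had an adjusted p of 0.197. ARRDC4, its relative with the same kind of regulation, named here after its values were seen, rose by 1.25 (SE 0.27) against -0.22 in the shRNA5 lines.

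For most called genes the dox- mean of shRNA5 lay on the side of the shRNA1 dox+ arrays. Of the 277 genes that rose, 266 had a higher mean on the dox- arrays of shRNA5 than on those of shRNA1, with a median difference of 0.52 before any doxycycline. Of the 208 that fell, 196 had a lower mean there, with a median difference of -0.40. The dox- arrays of shRNA1 are a term of the contrast that chose these genes, so these counts are a description. The mean level of TXNIP was 7.94 on the dox- arrays of shRNA1 and higher on those of shRNA5 by 2.06 (SE 0.44), adjusted p 0.143. That of MB was 5.16 and 7.37, a difference of 2.21 (SE 0.27), adjusted p 0.0113. CDH1 lay at 7.48 and 9.03 and DDIT4 at 8.92 and 10.3. Over all probes limma called 4 (0.0279%) between the dox- arrays of the hairpins and 5 (0.0349%) between their dox+ arrays, a comparison added after the values were seen.

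Genes of the ATF4 stress response were the list with the highest median difference. ATF4 is a transcription factor that cells translate when amino acids are short or proteins misfold, and it switches on amino acid synthesis and transport together with the regulators that end or extend the response. Of 35 of its targets and regulators measured, 11 rose and 0 fell, against 2.81% and 2.11% of all genes. Their median difference was 0.75, against -0.00 over all genes, and 34 were positive. In the shRNA5 lines the median was 0.61 with 32 positive, although no probe was called there. With the replicate block 16 rose, under scaling to a common median 6 rose with 29 positive, and without a detection filter 2 rose. When 1 array was left out the number ran from 0 to 15.

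Several regulators of the response rose. ATF5, a factor of the same family, had levels of 8.32, 9.04 and 8.21 on the dox- arrays and 10.90, 9.83 and 11.06 on the dox+ arrays. It rose by 2.07 (SE 0.37) at an adjusted p of 0.0166 (limma), and its difference was 1.55 in the shRNA5 lines. TRIB3, a pseudokinase that restrains ATF4, rose by 1.83 (SE 0.37) from 8.21, 9.15 and 7.95 to 10.24, 9.81 and 10.73. DDIT4, an inhibitor of the growth kinase mTORC1, rose by 1.99 (SE 0.34) from 8.89, 9.28 and 8.58 to 11.06, 10.23 and 11.42. For each of these 3 genes the groups were apart and replicate 2 was the dox+ array nearest to the dox- arrays. DDIT3, which encodes the factor CHOP, rose by 1.33 (SE 0.36), PPP1R15A, which reverses the translation block, by 1.09 (SE 0.25), and ATF3 by 0.93 (SE 0.23). DDIT4 differed least in the shRNA5 lines, at 0.30, with a difference between hairpins of 1.69 (SE 0.50) and an adjusted p of 0.299.

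**Figure D3:**
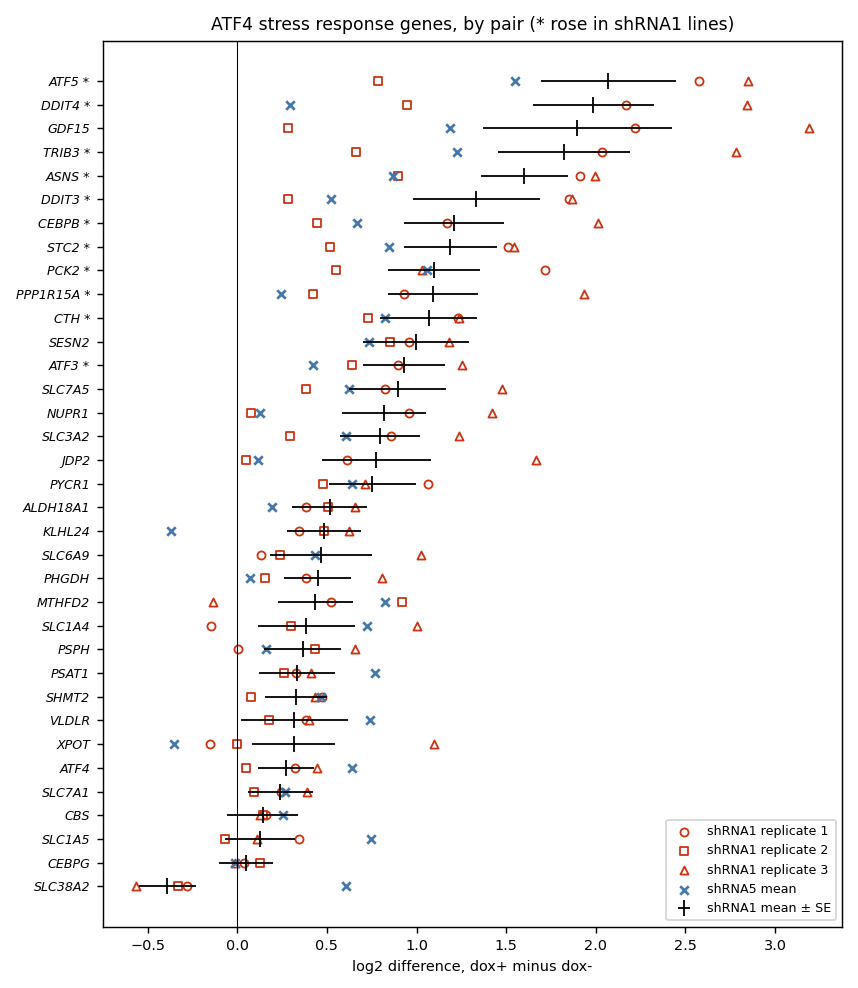
Log2 difference with doxycycline (x axis) of each of the 35 measured genes of the ATF4 stress response list, for each shRNA1 pair (open red symbols), their mean ± SE (black) and the shRNA5 mean (blue cross), with an asterisk on the 11 genes that rose. The squares of replicate 2 lie nearest 0 for 26 of the 35 genes.

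Enzymes of amino acid supply were among the called genes. ASNS, which makes asparagine, had levels of 11.45, 12.38 and 11.71 without and 13.36, 13.28 and 13.71 with doxycycline. It rose by 1.60 (SE 0.24), adjusted p 0.0118 in limma, but its other kept probe differed by 0.76 with an adjusted p of 0.119. ASS1, which makes the precursor of arginine, rose by 1.63 (SE 0.21), and CTH, which makes cysteine, by 1.07 (SE 0.27). Of 20 genes of amino acid synthesis 3 rose (15%, against 2.81% of all genes) and 0 fell. Their median was 0.36, against 0.25 in the shRNA5 lines. Of 18 cytosolic tRNA synthetases, which charge tRNAs with amino acids, EPRS1 and AARS1 rose (11.1%) and none fell, with medians of 0.33 and 0.35. Under scaling to a common median those 2 medians of the shRNA1 lines were 0.09 and 0.02.

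The promoter of ASNS carries the element to which ATF4 binds with its C/EBP partners, and it is printed to show where that element lies. The sequence is from RefSeq (GRCh38.p14), chr7:97872359-97872658 on the minus strand, from 250 bases before the start of the gene to 50 after it. The letters searched were TGATGNAAN on both strands, and the match in capitals begins 68 bases before the start.

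ASNS promoter: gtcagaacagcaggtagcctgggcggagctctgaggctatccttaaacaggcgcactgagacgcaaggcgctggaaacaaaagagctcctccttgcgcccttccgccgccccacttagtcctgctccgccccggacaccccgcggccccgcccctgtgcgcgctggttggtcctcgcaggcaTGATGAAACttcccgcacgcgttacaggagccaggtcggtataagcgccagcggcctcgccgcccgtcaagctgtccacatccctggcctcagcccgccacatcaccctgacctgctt

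Of the 31 listed ATF4 genes with a promoter in the table, 4 hold these letters (12.9%), against 1.67% of the 8098 measured genes with a promoter. Of the 11 genes of the list that rose, ASNS and ATF3 hold them. The share was 3.3% over all genes that rose, 2.25% over those that fell and 3.67% over all 27305 promoters. The other spelling searched, TTGCATCA, was in 0 of the 31 and in 0.531% of the promoters of measured genes.

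Among genes of protein folding in the endoplasmic reticulum XBP1 was the gene called. Of 22 genes of its chaperones and stress sensors, 1 rose (4.55%, against 2.81% of all genes) and 0 fell. Their median of 0.26 became -0.00 under scaling to a common median. XBP1, the factor activated by the sensor IRE1, was at 10.97, 11.31 and 11.01 without and at 12.03, 11.75 and 12.07 with doxycycline. Its groups were apart, and the difference of 0.85 (SE 0.20) had adjusted p 0.0327 in limma. The shRNA5 difference of XBP1 was 0.57.

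Genes that carry proteins between the endoplasmic reticulum and the Golgi held 12 rises. Of 71 measured, 12 rose (16.9%, against 2.81% of all genes) and 0 fell. For 60 the difference was positive, and for 36 the groups were apart and higher (against 14.9% of all genes). The median was 0.36, and 0.12 in the shRNA5 lines. This list, that of lysosomal hydrolases and that of splicing factors were drawn up after the values were seen, so their counts are a description, and their members are named on that footing. KDELR3, a receptor that returns escaped chaperones, rose from 7.88, 7.82 and 7.69 to 8.87, 8.85 and 9.30, a difference of 1.21 (SE 0.18) at an adjusted p of 0.0117 (limma). On the shRNA5 arrays it was at 8.85 and 8.62 without and 8.72, 8.39 and 8.78 with doxycycline, so its dox- arrays there lay above all dox- arrays of shRNA1. GOLGA2, a tether of the cis-Golgi, rose by 1.52 (SE 0.26) against -0.09 in the shRNA5 lines. COPA, a subunit of the coat that returns vesicles to the endoplasmic reticulum, rose by 0.86 (SE 0.17) against 0.03. ARFGAP3, TMED1, TMED3, GOSR2, STX5, COG6, YIF1B, SEC23A and GOLGA3 also rose. The adjusted p of the difference between hairpins was 0.197 for KDELR3, 0.227 for GOLGA2 and 0.299 for COPA.

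Among lysosomal enzymes 7 rose. Of 41 hydrolases and their helpers, 7 rose (17.1%, against 2.81% of all genes) and 0 fell. Their median was 0.23, against 0.04 in the shRNA5 lines. DNASE2, which digests DNA in lysosomes, rose from 9.54, 9.82 and 9.19 to 10.80, 10.48 and 11.05, by 1.26 (SE 0.21), adjusted p 0.0157 in limma. MANBA, which removes mannose from glycans, rose by 1.03 (SE 0.22), and the proteases CTSL and LGMN by 0.80 (SE 0.20) and 0.71 (SE 0.18). The other kept probes of CTSL differed by 0.60 and 0.85, with adjusted p of 0.124 and 0.0449 in limma. In the list of autophagy and lysosome genes WIPI1, CTSL and NPC2 rose among 36 (8.33%) and 0 fell. WIPI1, which marks the membrane of forming autophagosomes, had levels of 6.15, 6.62 and 6.84 without and 8.10, 7.96 and 8.63 with doxycycline. It rose by 1.69 (SE 0.24), and its difference in the shRNA5 lines was 0.44, which was not called.

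Epithelial adhesion genes held some of the largest rises. CDH1, the E-cadherin that joins epithelial and undifferentiated cells, had levels of 7.29, 7.88 and 7.26 without and 9.91, 8.76 and 10.58 with doxycycline. The groups were apart, and the rise of 2.27 (SE 0.55), or 4.83-fold, had an adjusted p of 0.0377 in limma. The shRNA5 lines gave 9.31 and 8.75 without and between 8.71 and 11.14 with doxycycline, where the array of replicate 6 stood over 2 log2 units above the other dox+ arrays. CLDN7, a claudin of tight junctions, was not detected on the dox- arrays, passed the filter only through its dox+ arrays and rose at least 2.58-fold. DSP and PKP2, which build desmosomes, rose by 1.19 (SE 0.20) and 1.02 (SE 0.26). CD24, a surface glycoprotein, fell by 1.02 on the log2 scale. Of 31 adhesion genes 4 rose (12.9%, against 2.81% of all genes) and 1 fell (3.23%, against 2.11%). Their median of 0.01 became -0.23 under scaling to a common median. ITGAX, an integrin chain of myeloid cells, rose at least 3.35-fold from no detection on the dox- arrays, and it too was kept only through its dox+ arrays. OVOL2, a repressor that maintains epithelial identity, picked for its values, rose at least 1.80-fold.

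Of the markers of trophoblast and surface ectoderm GATA3 and GATA2 rose. GATA3, a factor of trophoblast and of surface ectoderm, was at 6.36, 6.82 and 5.66 without and 7.62, 7.67 and 7.57 with doxycycline. It rose by 1.34 (SE 0.29) at an adjusted p of 0.0282 (limma), against -0.11 in the shRNA5 lines. GATA2 was not detected on the dox- arrays, passed the filter only through its dox+ arrays and rose at least 2.15-fold. Of 12 genes of the list 2 rose (16.7%, against 2.81% of all genes) and 0 fell, and 11 were positive. Their median was 0.49, against -0.05 in the shRNA5 lines, where 5 of 12 were positive. Without a detection filter 0 were called, and with the replicate block 4. The difference of GATA3 between hairpins was 1.45 (SE 0.44), with an adjusted p of 0.299. EGFR had a difference of 0.78 (SE 0.22; adjusted p 0.0584, and 0.0416 with the replicate block).

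Lists of other lineages held from 0 to 2 called genes each. Of 18 neural genes and 15 of mesoderm and mesenchyme 0 were called in either direction, with medians of -0.28 and -0.43. COL1A2, a fibrillar collagen, was at 8.77, 7.48 and 10.16 without and 6.48, 8.24 and 6.59 with doxycycline. Its groups overlapped, and the difference of -1.70 (SE 0.61) had adjusted p 0.109 in limma. Of 9 endoderm genes DAB2, an adaptor of endocytosis, rose by 0.73 (SE 0.19), and its other kept probe differed by 0.55 (adjusted p 0.0799 in limma). Of 18 genes of the response to retinoic acid CYP26B1 and RXRB rose (11.1%, against 2.81% of all genes). CYP26B1, which breaks retinoic acid down, went from 6.94, 7.42 and 7.15 to 8.44, 8.61 and 8.88, a rise of 1.47 (SE 0.19) against -0.27 in the shRNA5 lines, and the adjusted p of the difference was 0.124.

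Few pluripotency genes were called. Of 33 measured, PRDM14 and USP44 fell (6.06%, against 2.11% of all genes), CDH1 rose (3.03%, against 2.81%), and 30 were not called. The median was -0.22, against 0.09 in the shRNA5 lines. PRDM14, a repressor that guards the naive and germ cell state, had levels of 8.48, 7.82 and 8.52 without and 6.56, 7.08 and 6.75 with doxycycline. The groups were apart, and it fell by 1.48 on the log2 scale (SE 0.31), adjusted p 0.0255 in limma. Across the shRNA5 arrays it was at 7.62 and 8.09 without and 7.72, 8.29 and 6.89 with doxycycline, where the groups overlapped. USP44, a deubiquitinase of the mitotic checkpoint, fell by 0.92.

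The core factors did not pass. NANOG was at 10.17, 10.46 and 10.16 without and 9.57, 9.68 and 9.92 with doxycycline, a difference of -0.54 (SE 0.19) at an adjusted p of 0.103 (limma). In the shRNA5 lines its difference was 0.46. SOX2 lay at 11.33, 11.03 and 11.14 without and 10.61, 10.53 and 10.32 with doxycycline, a difference of -0.68 (SE 0.35), adjusted p 0.251, and 0.0392 with the replicate block. For NANOG and SOX2 the groups were apart. POU5F1 differed by -0.19 (SE 0.28), LIN28A by -0.04 (SE 0.15) and DNMT3B, a DNA methyltransferase of early cells, by -0.54 (SE 0.24), with adjusted p of 0.713, 0.892 and 0.191. For DNMT3B too the groups were apart at this probe. DNMT3B had 4 kept probes, of which 1 was called, at -0.79 with an adjusted p of 0.0458.

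**Figure D4:**
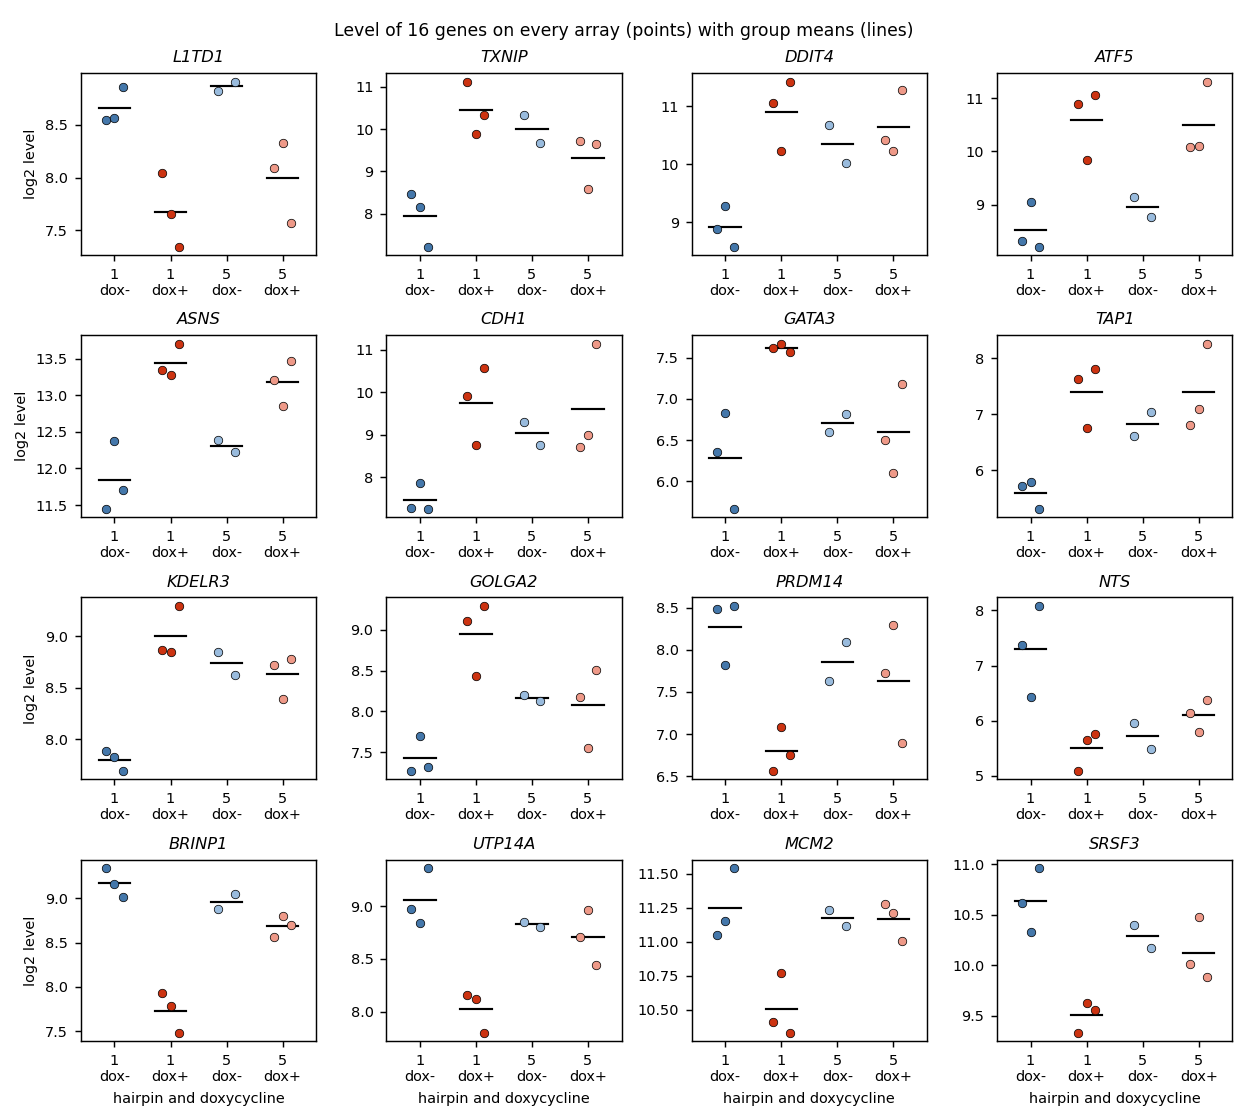
Log2 level (y axis) of 16 genes on each of the 11 arrays (points), with group means (lines), for shRNA1 (1) and shRNA5 (5) without and with doxycycline. L1TD1 is lower with doxycycline in both hairpins, while KDELR3 and NTS sit apart mainly on the dox- arrays of shRNA1, and BRINP1, UTP14A and MCM2 mainly on its dox+ arrays.

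Few genes of antigen presentation and of the interferon response were called. TAP1, the transporter that feeds peptides to MHC class I, was detected on 1 of 3 dox- arrays, at 5.71, 5.78 and 5.30, and on all dox+ arrays, at 7.63, 6.76 and 7.81. It rose by 1.80 (SE 0.35), adjusted p 0.0187 in limma, against 0.57 in the shRNA5 lines. On the dox+ arrays of shRNA5 TAP1 was at 6.82, 7.10 and 8.27 for replicates 4, 5 and 6. HLA-B, a heavy chain of MHC class I that shares sequence with its paralogs, rose by 1.44 (SE 0.34). Of 15 genes of the pathway these 2 rose (13.3%, against 2.81% of all genes) and 0 fell, with a median of 0.22. Of 21 interferon-stimulated genes 0 were called, although 19 were positive, with a median of 0.41 against 0.11 in the shRNA5 lines. Within the shRNA1 pairs of replicates 1, 2 and 3 their median was 0.45, 0.04 and 0.59. With the replicate block 2 rose in each of these lists. MX1, an antiviral GTPase, had a difference of 0.78 (SE 0.24), adjusted p 0.0732. TRIM22 had a difference of -0.75 (SE 0.22) at an adjusted p of 0.0583 (limma) and 0.0373 with the replicate block.

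The TAP1 promoter is printed because it holds the element of interferon-stimulated genes. It is RefSeq sequence (GRCh38.p14), chr6:32853655-32853954 on the minus strand, with the same window around the start. The interferon-stimulated response element, searched on both strands as GAAA followed after any 2 bases by GAAA, has 2 overlapping matches on the opposite strand, which the capitals mark from 134 bases before the start.

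TAP1 promoter: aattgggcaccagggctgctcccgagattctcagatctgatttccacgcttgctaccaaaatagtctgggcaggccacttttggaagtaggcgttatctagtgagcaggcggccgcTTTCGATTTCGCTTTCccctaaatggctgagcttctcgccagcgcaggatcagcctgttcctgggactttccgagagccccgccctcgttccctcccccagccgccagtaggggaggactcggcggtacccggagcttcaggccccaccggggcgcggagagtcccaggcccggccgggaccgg

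The element was in 13 of the 17 interferon-stimulated genes with a promoter (76.5%) and in 9 of the 14 of antigen presentation (64.3%), against 2.67% of the promoters of measured genes. Among the genes that rose in the shRNA1 lines the share was 2.83%. The promoter of HLA-B in the table did not hold it in this window.

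Immediate early genes were mostly higher with doxycycline. Of 25 measured, FOSB and ATF3 rose (8%, against 2.81% of all genes) and 0 fell. For 22 the difference was positive, and the median was 0.47 against 0.05 in the shRNA5 lines. Within the shRNA1 pairs of replicates 1, 2 and 3 the median was 0.62, 0.002 and 0.58, so the pair of replicate 2 showed next to no shift. FOSB, a subunit of the factor AP-1, was at 6.38, 6.68 and 5.92 without and 7.59, 6.88 and 8.16 with doxycycline, and rose by 1.21 (SE 0.29), adjusted p 0.036 in limma. In the list 8 rose with the replicate block, 0 in the 6 shRNA1 arrays alone, where FOSB had an adjusted p of 0.0547 and ATF3 of 0.0594, 2 in those 6 arrays with the block, 0 without a detection filter and 1 under scaling to a common median, where 17 were positive. In a separate list, of 25 genes of FGF signals and ERK feedback, 1 fell (4%) and 0 rose, 12 were positive and the median was -0.02. The gene that fell was DUSP6, the phosphatase that ERK induces to limit itself. DUSP6 was not detected on the dox+ arrays, and fell at least 1.97-fold. Its other kept probe differed by -0.71, with an adjusted p of 0.174 in limma.

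Nucleolar genes were mostly lower with doxycycline. Of 44 genes of ribosome biogenesis 5 fell (11.4%, against 2.11% of all genes) and 0 rose, and 38 were negative. Their median was -0.36, against 0.02 in the shRNA5 lines with 21 negative. In the 6 shRNA1 arrays alone 3 fell, and under scaling to a common median 8. UTP14A, a part of the complex that processes 18S ribosomal RNA, was at 8.98, 8.85 and 9.36 without and 8.16, 8.12 and 7.80 with doxycycline. It fell by 1.04 on the log2 scale (SE 0.19) at an adjusted p of 0.0184 (limma), and its other kept probe differed by -0.68 with an adjusted p of 0.0507. RRP9, a protein of the U3 particle, fell by 1.06 (SE 0.20) and NOP56, a core protein of box C/D particles, by 0.85 (SE 0.21), and RRS1 and NIP7 fell as well. NOP58, the partner of NOP56, had a difference of -0.82 (SE 0.23) that did not pass (adjusted p 0.0581, and 0.0415 with the replicate block), against 0.94 in the shRNA5 lines.

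Of 51 genes of S phase entry and DNA replication 3 fell (5.88%, against 2.11% of all genes) and 0 rose. For 42 the difference was negative, and for 28 the groups were apart and lower (against 14.7% of all genes). The median was -0.35, against -0.00 in the shRNA5 lines with 26 negative. MCM2, a subunit of the replicative helicase, was at 11.05, 11.15 and 11.54 without and 10.41, 10.77 and 10.33 with doxycycline. It fell by 0.75 on the log2 scale (SE 0.19), adjusted p 0.0403 in limma, against -0.01 in the shRNA5 lines. GINS4, of the same helicase, fell by 0.75 (SE 0.19) and RRM2, a subunit of ribonucleotide reductase, by 0.68 (SE 0.18). In the list 8 fell with the replicate block, 12 under scaling to a common median, 0 without a detection filter, 1 in the 6 shRNA1 arrays alone and 2 in those arrays with the block. In the 6 arrays alone the adjusted p in limma was 0.0683 for MCM2, 0.0564 for GINS4 and 0.0829 for RRM2, so none of these 3 passed there. In mitosis SPC25, a protein of the kinetochore, fell by 0.84 among 45 genes whose median was -0.07. The other kept probe of SPC25 differed by -0.14, with an adjusted p of 0.812 in limma. CDKN1A, the p21 inhibitor of cyclin kinases, differed by 0.53 (SE 0.27), adjusted p 0.247.

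Calls were few among genes of nucleotide metabolism, the proteasome and ribosomal proteins. PFAS, an enzyme of purine synthesis, was at 10.77, 9.83 and 10.27 without and 9.36, 9.18 and 8.77 with doxycycline. It fell by 1.18 on the log2 scale (SE 0.23) at an adjusted p of 0.0187 (limma). NME1, a nucleotide kinase, fell by 0.90 (SE 0.18). With RRM2 these were 3 of 30 genes of purine, pyrimidine and folate metabolism (10%, against 2.11% of all genes). SLC19A1, the folate carrier, fell by 1.00 (SE 0.18) against 0.22 in the shRNA5 lines. Of 30 proteasome genes 0 were called, 27 were negative and the median was -0.29, against 0.05 in the shRNA5 lines. Of 74 mitochondrial ribosomal proteins MRPL15, MRPL21 and MRPL57 fell (4.05%, against 2.11% of all genes), 58 were negative and the median was -0.19. The other kept probe of MRPL21 differed by -0.57, adjusted p 0.0780 in limma. Of 86 cytosolic ribosomal proteins RPL29, RPL34 and RPS7 fell (3.49%) and RPL37 rose, with a median of -0.01. The other kept probe of RPS7 differed by -0.81, adjusted p 0.0740 in limma.

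Splicing factors and hnRNPs were a list drawn up after the values were seen. Of 84 measured, 10 fell (11.9%, against 2.11% of all genes) and 1 rose (1.19%, against 2.81%). The median was -0.26, against -0.06 in the shRNA5 lines, and 65 were negative. SRSF3, a splicing factor that binds exonic enhancers, was at 10.62, 10.33 and 10.97 without and 9.33, 9.63 and 9.56 with doxycycline. It fell by 1.13 on the log2 scale (SE 0.21), adjusted p 0.0179 in limma. HNRNPU fell by 1.07 (SE 0.22) and HNRNPA2B1 by 0.89 (SE 0.18), and the gene that rose was HNRNPDL, by 1.01 (SE 0.17). SFPQ, a protein of nuclear paraspeckles, was detected on the dox- arrays and not on the dox+ arrays, and fell at least 1.59-fold. In the shRNA5 lines the difference of SFPQ was 0.56, and the difference between hairpins of -1.52 (SE 0.34) had adjusted p 0.197.

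Zinc finger and chromatin genes were called in small numbers. Of 262 genes named ZNF, 10 fell (3.82%, against 2.11% of all genes) and 1 rose (0.382%, against 2.81%). Their median was -0.14. ZNF480 was at 7.75, 7.62 and 7.90 without and 6.52, 6.81 and 6.00 with doxycycline. It fell by 1.31 on the log2 scale (SE 0.21) at an adjusted p of 0.0133 (limma), against 0.32 in the shRNA5 lines. EZH2, the histone methyltransferase of Polycomb, fell by 0.78 (SE 0.17) with all 3 of its kept probes called. HELLS, a remodeller needed for DNA methylation, fell by 0.89 (SE 0.17), and SETDB2, a histone methyltransferase, rose by 0.98 (SE 0.17). H2BC5 and H2BC21, whose genes can give polyadenylated histone transcripts, rose by 1.19 (SE 0.23) and 1.23 (SE 0.30) against -0.51 and -0.46 in the shRNA5 lines, and H4C12 fell by 1.08 (SE 0.24). The other kept probe of H2BC5 differed by 0.95, with an adjusted p of 0.0758 in limma.

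**Figure D5:**
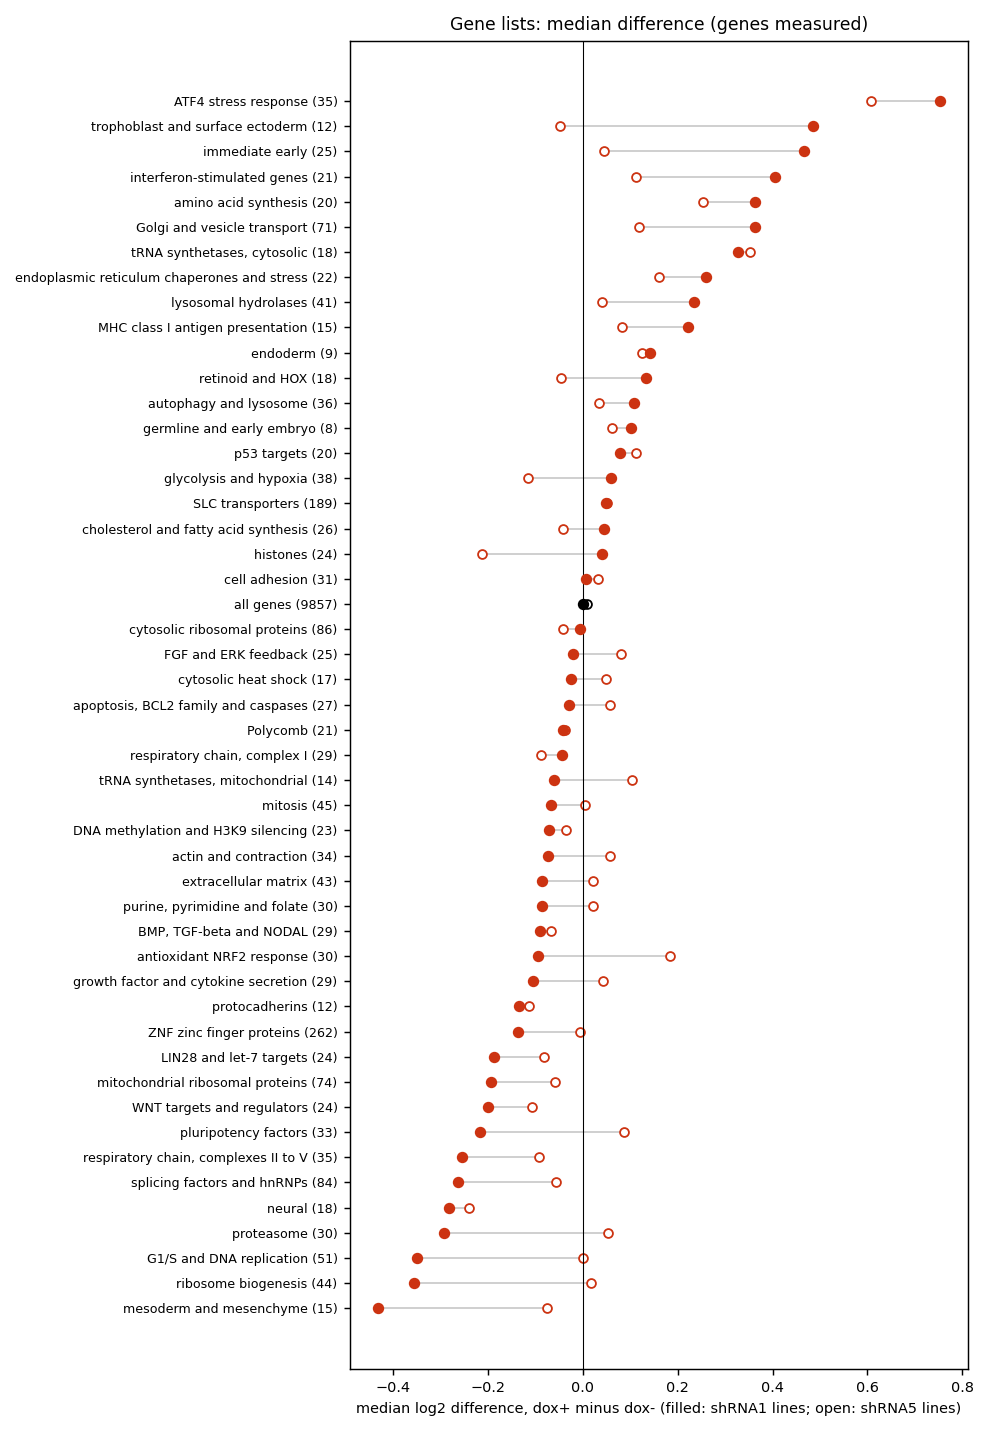
Median log2 difference with doxycycline (x axis) of each gene list in the shRNA1 lines (filled) and in the shRNA5 lines (open), with the number of genes measured in brackets and all genes in black. The ATF4 stress response list has the highest median in both hairpins (0.75 and 0.61), whereas ribosome biogenesis and S phase genes are at -0.36 and -0.35 in the shRNA1 lines and near 0 in the shRNA5 lines.

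The largest falls were in genes of varied roles. GLIPR1L1, a protein of the sperm surface, went from 10.58, 10.22 and 11.18 to 8.86, 8.47 and 9.10, and fell by 1.85 on the log2 scale (SE 0.36), adjusted p 0.0187 in limma. NTS, the peptide neurotensin, was at 7.38, 6.43 and 8.09 without doxycycline and at 5.09, 5.65 and 5.76 with it, where 1 of 3 arrays detected it. It fell by 1.80 (SE 0.34), against 0.38 in the shRNA5 lines. LCMT2, an enzyme that modifies a tRNA base, was detected on the dox- arrays and not on the dox+ arrays, and fell at least 2.94-fold.

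STC1, a secreted glycoprotein related to a calcium hormone of fish, fell in the shRNA1 lines and had a difference of like sign in the shRNA5 lines. It was at 7.31, 7.23 and 7.98 without and 6.16, 6.18 and 5.72 with doxycycline, a fall of 1.49 on the log2 scale at an adjusted p of 0.0165 (limma). The shRNA5 difference was -1.14, and the difference between hairpins was -0.34 (SE 0.39). STC2, its relative and an ATF4 target, rose by 1.19 (SE 0.26).

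BRINP1, a neural protein that restrains the cell cycle, had the smallest standard error among the 15 largest falls. It was at 9.34, 9.16 and 9.01 without and 7.93, 7.79 and 7.48 with doxycycline, and fell by 1.44 on the log2 scale (SE 0.17), adjusted p 0.00931 in limma. On the shRNA5 arrays it lay between 8.57 and 9.04 on all 5 arrays. AP1S2, a small subunit of the clathrin adaptor AP-1, fell by 1.43 (SE 0.21) and by 1.61 at its other probe, against 0.01 in the shRNA5 lines. PRKAR1B, a regulatory subunit of protein kinase A, fell by 1.47 (SE 0.21), and HMGB1, a chromatin protein detected on 1 of 3 dox+ arrays, by 1.44 (SE 0.34). FAM210B, C1orf94, PRTFDC1, MSANTD2, IL2RB and FGF12 fell by between 1.78 and 1.41 on the log2 scale.

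Genes of cell death were called in both directions. Of 27 measured, CYCS, BCL2 and BID fell (11.1%, against 2.11% of all genes) and HRK rose (3.7%, against 2.81%). CYCS, the cytochrome c of the respiratory chain that also activates caspases, went from 8.29, 8.05 and 8.69 to 7.03, 6.96 and 6.92. It fell by 1.37 on the log2 scale (SE 0.19) at an adjusted p of 0.00931 (limma). BCL2, which restrains cell death, was not detected on the dox+ arrays and fell at least 1.57-fold, and BID, which promotes it, fell by 0.91 (SE 0.24). HRK, a promoter of cell death detected on 2 of 3 dox- arrays, rose by 1.81 (SE 0.47). Of 20 p53 targets 1 rose (5%) and 1 fell (5%). GADD45A rose by 0.84 (SE 0.20) and TP53I3 fell by 1.36 (SE 0.31).

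Genes ranked by the test of the difference between hairpins were chosen by a measure that favours opposite signs in the 2 hairpins, so their signs are a description. VSNL1, a neuronal calcium sensor, was at 8.50, 8.37 and 8.69 without and 7.14, 7.73 and 8.08 with doxycycline in the shRNA1 lines. In the shRNA5 lines it was at 8.06 and 7.81 without and 8.65, 8.67 and 8.58 with doxycycline, so that all arrays of each hairpin were apart, in opposite directions. The difference between hairpins was -1.56 (SE 0.33), adjusted p 0.197 in limma. LAP3, an aminopeptidase, and KLKB1, the plasma prekallikrein, fell by 1.06 and 1.39 on the log2 scale against 0.37 and 0.35 in the shRNA5 lines. TARS1, the threonine tRNA synthetase, had a difference of -0.62 that was not called, against 0.82.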

How the data were processed

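Illumina bead arrays were hybridised with biotin cRNA made from total RNA, per the labels' protocols. The deposited table holds raw intensity on a linear scale without background subtraction, and beside each signal a detection p-value, deposited in steps of 1 over 759. The authors also deposited quantile-normalized intensity, and the submitters' processing notes name limma without a version. 0 columns were left unused and 0 pairs of arrays were identical.

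Background correction and normalization used the neqc function (limma 3.58.1, statmod 1.5.0, R 4.3.3), with offset 16, log2 and quantile normalization over 11 arrays, and fitted with lmFit and eBayes as 4 group means. P-values were adjusted by Benjamini-Hochberg over the kept probes, and differences are dox+ minus dox-. The array number limits the precision. Of 48803 probes 28098 had 1 gene symbol, 13 several and 20692 none; 2106 genes had over 1 kept probe. Of the called probes 108 had no single symbol. For a gene undetected in a whole group the fold is a lower bound under this correction and offset alone. It sets the bright group's mean against the lowest detected signal of each dim array, or the probe's own signal where higher.

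Same-numbered arrays were read as 1 clone, since the design text gives 2 samples to each clone, although no label ties the numbers to clones. Their deviations from group means correlated at 0.124, 0.0789 and 0.273 in shRNA1 and 0.0512 and 0.0812 in shRNA5. P-values measure the spread between these samples.

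A set of 171 genes was picked by rule, and 100 of these were called. It holds L1TD1 and 5 pluripotency genes, the 15 largest called rises and falls, and the 3 lowest p-values of each of 45 lists. It also holds the 10 lowest p-values of each sign for the difference between hairpins. Not every gene of this set is described above, and NAT16, PKD1L2 and ACSS2 are among those left out. The text also describes called list members and some genes picked with their values in view. The members and lists were chosen with earlier results of these data known. The fit was tested on simulated data. Alternatives were other arrays in the fit, replicate blocks, background, scaling, offset, filters, array weights and leaving out each array. Promoters come from RefSeq, 300 bases each.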

Additional observations from a re-analysis of the deposited data

Results flagged for a closer look

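The effect of doxycycline on ACTN3 differed between the hairpins by 2.52 on the log2 scale, shRNA1 minus shRNA5 (SE 0.28), adjusted p 0.00879 in limma. The size of this difference was 1.18 without background correction, 1.34 on the authors' normalized values and 1.64 with offset 50. All 3 pairs of shRNA1 arrays were higher with doxycycline and both shRNA5 pairs were lower. The adjusted p lay between 0.00175 and 0.107 over the other settings, and it missed the threshold with the replicate block (0.0630), without background correction (0.106), on the authors' normalized values (0.107), with offset 50 (0.0565) and without the shRNA5 dox- array of replicate 4 (0.0820) or 5 (0.103).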

How the results depend on the processing

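The number of probes called in the shRNA1 lines, 723, became 1359 with the replicate block, 1520 with a random block, 292 without a detection filter and 2645 with array weights, and 1 to 1151 when 1 array was left out. Higher calls, 389, became 715, 781, 138 and 1341 in those settings, 179 under scaling to a common median and 1 to 604 without 1 array. Lower calls, 334, became 644, 739, 154, 1304, 563 and 0 to 547. For the difference between hairpins the 1 call became 0 with the replicate block, without background correction, on the authors' values, with offset 50 and with detection on all 6 arrays, 2 with a random block, 165 with array weights and 0 to 3 without 1 array. For shRNA5 the 0 calls became 1 without its dox+ array of replicate 5. The difference of L1TD1 stayed at -0.98 without a filter but missed the threshold (0.0750), and ranged from -1.16 to -0.81 without 1 array. POU5F1 changed sign without the shRNA1 dox+ array of replicate 2 (0.037, range -0.37 to 0.037 without 1 array), and LIN28A with array weights (0.011) and without the dox- array of replicate 2 (0.022, range -0.098 to 0.022). None of these was called.

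The ATF4 list median of 0.75 became 0.45 without background correction, 0.51 under median scaling, 0.46 on the authors' values, 0.50 with offset 50, 0.52 with detection on all 6 arrays and 0.55 to 0.88 without 1 array. Under median scaling the medians became 0.14 (interferon), -0.60 (replication), -0.47 (pluripotency), 0.23 (trophoblast), 0.22 (immediate early), -0.61 (ribosome biogenesis) and -0.57 (proteasome). Immediate early was 0.31 without background correction and ribosome biogenesis -0.43 with array weights. Without 1 array they ranged over 0.35 to 0.59 (interferon), 0.34 to 0.73 (trophoblast), 0.35 to 0.61 (immediate early) and -0.44 to -0.34 (ribosome biogenesis). Causes were not tested. Among the 171 genes picked by rule the replicate block changed the call of 23. HSPA1B was called at 0.0449 without the block and had 0.0503 with it, and the other 22 gained a call. Of the 100 called genes in this set, 44 stayed called without a filter and 83 in the 6 shRNA1 arrays alone.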
